A study of Mus musculus with 12 samples.

Results

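The nuclear receptor genes examined were Pparg, Ppard, Rxra, Rxrb, Rara, Vdr, Nr3c1, Nr4a1, Nr4a2 and Nr4a3. They were taken by gene symbol from the expression table of each sample, which gave 10 rows, 1 for each gene, of the 23847 rows in the tables. Bone marrow-derived macrophages (BMDMs) had been grown for 6 days, in L929 cell supernatant as the source of M-CSF, from the bone marrow of wild-type C57BL/6 mice aged 8 to 12 weeks, and all 4 groups shared this genotype and culture. The control cells received no stimulus, the IL-4 cells received IL-4 at 20 ng/ml for 24 h, the LPS cells received LPS at 100 ng/ml for 3 h, and the IL-4+LPS cells received the same IL-4 exposure followed by the same LPS exposure. The LPS unit is that of the labels, whereas the study's methods give the concentration in nM. Each group held 3 samples, which gave 12 in all, and the labels do not tie a replicate number to an animal or an experiment. The design therefore asks how IL-4, which polarizes macrophages to the alternative state, and LPS, a bacterial cell wall component that activates them through TLR4, change each receptor, and whether IL-4 pretreatment alters the LPS response.

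Nuclear receptors are transcription factors, many of which are switched by small lipid-soluble ligands. PPARs, the retinoic acid receptors and the vitamin D receptor bind DNA together with an RXR partner, so RXRs are shared by several pathways, whereas the glucocorticoid receptor encoded by Nr3c1 is released from chaperones by steroid and acts as a dimer or by contact with other factors. NR4A receptors are immediate early gene products that act without a classical ligand, and in macrophages PPARγ is best known for lipid uptake and alternative polarization.

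Levels are given as FPKM (fragments per kilobase of transcript, relative to all fragments mapped in that library), so they can be compared between genes. Differences are log2 fold changes of FPKM + 1 from a limma model over all 12 samples, with p-values adjusted by the Benjamini-Hochberg method over the 11191 rows that reached 1 FPKM in at least 1 sample, and a difference with an adjusted p below 0.05 is said to have passed the test. The added 1 FPKM understates the change of low genes. Of the 10 receptors, 8 reached this minimum and were tested. Vdr and Nr4a2 stayed below 1 FPKM in all 12 samples, and Nr4a3 reached it only in samples with LPS, so its presence among the tested genes follows from its LPS values.

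Treatment markers separated the groups as labelled. Retnla, an IL-4 marker, averaged 11.4 FPKM in control and 12170 FPKM in IL-4 samples, and Il1b, an LPS-induced cytokine gene, averaged 5.31 FPKM in control and 1916 FPKM in LPS samples. All 5 macrophage markers were detected. Their sum was 3813 to 4034 FPKM across control, 2633 to 2936 across IL-4, 2913 to 3174 across LPS and 2346 to 2429 across IL-4+LPS samples, so every treated sample was below every control sample. After IL-4, 4 of the 5 were lower, including Emr1 (F4/80; log2 fold change -1.14, adjusted p = 3.58e-06) and Mertk (-1.40, adjusted p = 0.000155), and after LPS 3 of the 5 were. The summed T cell, B cell, stromal and erythroid markers stayed at or below 0.424 FPKM. The 5 neutrophil markers present in the tables summed to 318 to 841 FPKM across control, 215 to 398 across IL-4, 499 to 996 across LPS and 423 to 828 across IL-4+LPS samples. Replicate 1 of every group stood apart from replicates 2 and 3, with a mean Pearson r of 0.959 for pairs that include it and 0.976 for replicates 2 and 3. The 3 dendritic cell markers summed to at most 1.17 FPKM outside the IL-4+LPS group and to 2.43 to 3.04 FPKM in it. Zbtb46 alone made this difference, at a mean of 0.0802 FPKM in control, 0.369 with IL-4, 0.518 with LPS and 2.42 with IL-4+LPS. Flt3 and Cd209a stayed below 1 FPKM in all 12 samples, and Cd209a averaged 0.245 FPKM with IL-4+LPS against 0.486 in control. The 3 mast cell and basophil markers summed to at most 1.04 FPKM outside the IL-4+LPS group and to 0.863 to 1.92 FPKM in it. Mcpt8, a basophil protease, averaged 1.03 FPKM there, 0.254 with LPS and 0.324 with IL-4. It reached 1 FPKM only in IL-4+LPS replicate 2, at 1.757 FPKM, against 0.6614 and 0.6634 in replicates 1 and 3. Its presence among the tested genes follows from that sample, so no call is given. Cpa3 and Fcer1a, the other markers of this list, stayed below 1 FPKM in all 12 samples. The part of these macrophage, neutrophil, dendritic cell and basophil marker values and of the replicate offset in the results below was not tested. In bulk RNA a change in the number of expressing cells and a change in RNA per cell cannot be told apart.

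LPS lowered Pparg, Ppard, Rxra, Rxrb, Rara and Nr4a1, and IL-4 lowered the same genes except Pparg, together with Nr3c1. The increases were those of Pparg after IL-4 and of Nr3c1 and Nr4a3 after LPS. After IL-4, 1 of the 10 receptors was higher and 6 were lower, where 16% and 21% of all rows tested were higher and lower. After LPS, 2 were higher and 6 were lower, where 16.9% and 57.7% of all rows were. After LPS in IL-4-pretreated cells, 1 was higher and 5 were lower than with IL-4 alone, where 15% and 57.9% of all rows were. In both of these counts of increases after LPS, 1 was Nr4a3. It was tested only through its LPS values, so it adds no support to either count. Between IL-4+LPS and LPS, 2 were higher and 1 was lower, where 15% and 15.8% of all rows were. The LPS response itself differed between pretreated and untreated cells (interaction) in the positive direction for 2 receptors and in the negative direction for 1, where 4.58% and 4.63% of all rows passed. A decrease after LPS was thus also the most common outcome among all genes, with a median log2 fold change of -0.44 over all rows and -1.32 over the 8 receptors tested. Of all rows that passed in this contrast, 77.4% were lower on the deposited scale and 57.6% after scaling each sample to its median, which moved the median of all rows to -0.11. For this reason LPS changes are also given relative to the median of all rows.

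**Figure D1:**
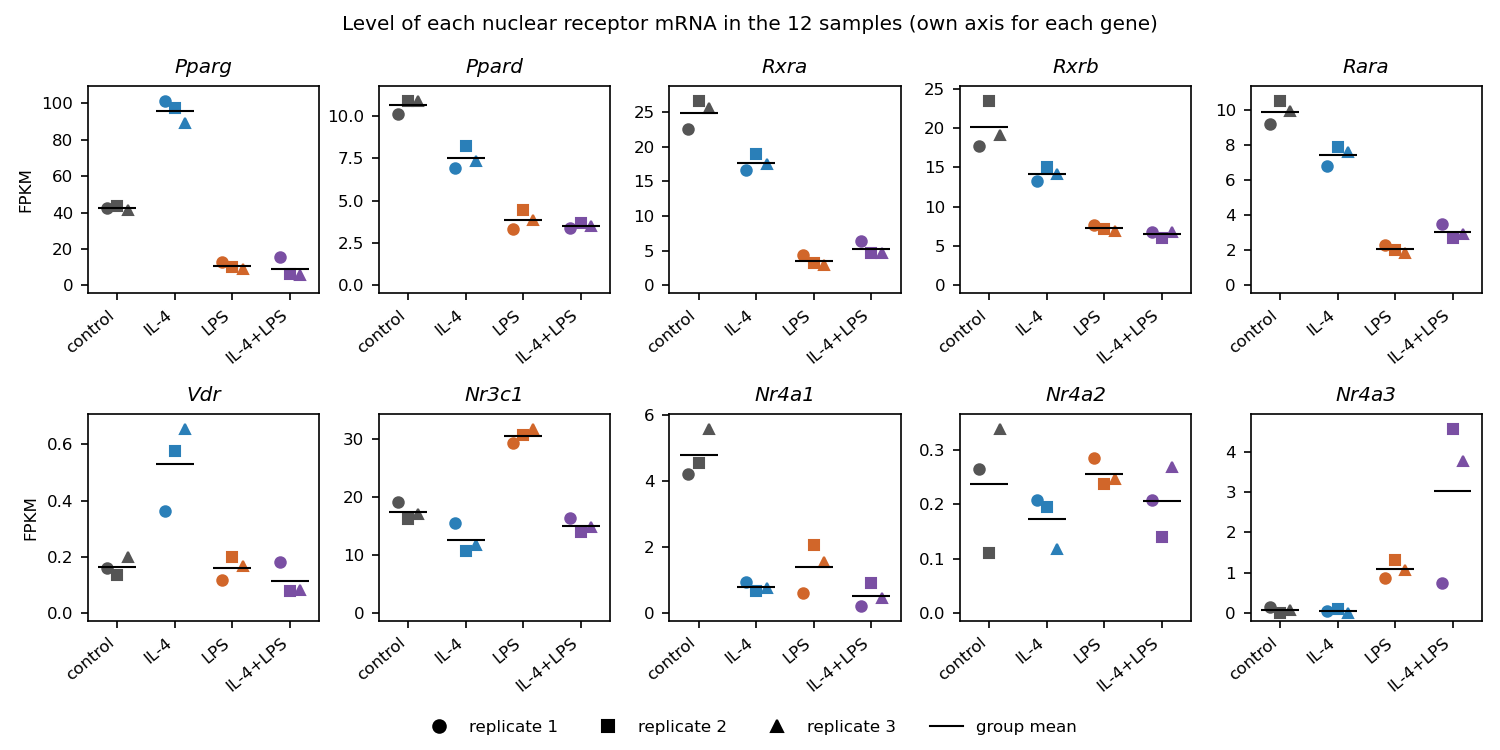
FPKM of each of the 10 receptors (y axis, its own linear scale in each panel) in the 4 groups (x axis), with 1 symbol per sample and a line at the group mean. Pparg is highest in the 3 IL-4 samples at 88.99 to 101.3 FPKM, Nr3c1 is highest in the 3 LPS samples at 29.3 to 31.87 FPKM, and Vdr and Nr4a2 stay below 1 FPKM throughout.

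The pool of receptor mRNA changed in size and in make-up. The 10 levels summed to 130.8 ± 4.99 FPKM in control cells, 156.9 ± 7.04 with IL-4, 60.8 ± 1.28 with LPS and 46.6 ± 5.84 with IL-4+LPS (mean ± SD, n = 3). These sums are on the deposited scale, on which the median log2 fold change of all rows after LPS was itself -0.44. Pparg made up 32.6% ± 1.11 of the sum in control and 61.1% ± 1.37 in IL-4 samples. In LPS samples Nr3c1 was the most abundant of them, with 50.4% ± 3.09 of the sum against 13.4% ± 1.64 in control.

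Pparg, which encodes PPARγ (chr6:115361221-115490401, plus strand, mm10, a protein-coding gene), was the most abundant receptor in control and IL-4 cells. Its level in control replicates 1 to 3 was 42.63, 43.51 and 41.48 FPKM, and in IL-4 replicates 1 to 3 it was 101.3, 97.37 and 88.99 FPKM. The groups were far apart, and IL-4 raised the mean 2.25-fold (log2 fold change 1.15, standard error 0.27, adjusted p = 0.00765). LPS samples held 12.67, 10.18 and 8.852 FPKM, which is 24.8% of the control mean (log2 fold change -1.93, adjusted p = 8.08e-05, and -1.48 relative to the median of all rows). IL-4+LPS samples held 15.44, 6.371 and 5.839 FPKM. Every one of them was below every IL-4 sample, and their mean was 9.61% of the IL-4 mean (log2 fold change -3.37, adjusted p = 1.66e-06).

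The increase set by IL-4 was thus not seen after 3 h of LPS. Pparg in IL-4+LPS and LPS samples did not differ beyond the spread between replicates (log2 fold change -0.29, 95% interval -0.89 to 0.32, adjusted p = 0.472). Replicate 1 decided this comparison, since IL-4+LPS replicate 1 was the highest of the 6 LPS-treated samples and the 2 others were the lowest. Without it, Pparg was lower with IL-4+LPS than with LPS alone (log2 fold change -0.69, adjusted p = 0.00227). The interaction was -1.44 (standard error 0.39, adjusted p = 0.0428), a steeper fall after IL-4, from a higher starting level. It passed narrowly: leaving out IL-4+LPS replicate 1 gave -1.84 (adjusted p = 0.000164), but leaving out any other single sample gave adjusted p-values of 0.0649 to 0.0929, a pseudocount of 0.1 gave 0.0579 and a fit without a filter on low values gave 0.115.

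Adipocytes also express Pparg. Of the 3 adipocyte markers, Adipoq (adiponectin) passed 1 FPKM in IL-4 samples only, and the summed markers ran from 0 to 0.0808 FPKM in control cells, 1.82 to 2.99 with IL-4, 0 with LPS and 0.363 to 0.466 with IL-4+LPS. Plin1, which coats the lipid droplet of adipocytes, was listed at 0 in all 12 samples.

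Ppard (chr17:28232754-28301469, plus strand, protein-coding) encodes PPARδ, a fatty acid sensor found in most tissues. It went the other way with IL-4. Control replicates held 10.12, 10.88 and 10.84 FPKM and IL-4 replicates 6.941, 8.242 and 7.351 FPKM, with no overlap (log2 fold change -0.45, standard error 0.09, adjusted p = 0.00361). LPS samples held 3.314, 4.433 and 3.854 FPKM and IL-4+LPS samples 3.395, 3.659 and 3.509 FPKM. LPS lowered Ppard to 36.4% of control (log2 fold change -1.26, adjusted p = 7.09e-07, and -0.82 relative to all rows) and to 46.9% of its level in IL-4 samples (-0.91, adjusted p = 8.96e-06). The IL-4+LPS samples lay within the range of the LPS samples (log2 fold change -0.10, 95% interval -0.31 to 0.11, adjusted p = 0.46), and the interaction did not pass (0.35, 95% interval 0.06 to 0.64, adjusted p = 0.131) except with the replicate number as a block (adjusted p = 0.0256). Within a sample the Pparg level was 4.01 ± 0.193 times the Ppard level in control and 12.8 ± 1.53 times in IL-4 samples (mean ± SD, n = 3). Ppara, the other PPAR gene, stayed below 1 FPKM in every sample.

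Rxra (chr2:27677201-27763319, plus strand, protein-coding) encodes RXRα, the usual macrophage partner of PPARγ and of the liver X receptors. It showed the steepest fall after LPS among the tested receptors. Control samples held 22.47, 26.6 and 25.6 FPKM, and LPS samples held 4.359, 3.257 and 2.88 FPKM. The LPS mean was 14.1% of the control mean (log2 fold change -2.54, standard error 0.14, adjusted p = 8.76e-08, and -2.09 relative to all rows). IL-4 samples lay between these groups at 16.68, 18.89 and 17.54 FPKM. Their difference from control was -0.47 (adjusted p = 0.0221), a call that was lost without IL-4 replicate 1 (0.0629), IL-4 replicate 3 (0.0619), control replicate 2 (0.0741) or control replicate 3 (0.065), and in the fit without a filter (0.055).

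Rxra kept more of its level when LPS followed IL-4. IL-4+LPS samples held 6.377, 4.695 and 4.679 FPKM, each above all 3 LPS samples. Rxra was lower in them than with IL-4 alone (log2 fold change -1.59, adjusted p = 2.72e-06), so the fall was 3.37-fold after IL-4 and 7.11-fold without it. The interaction of 0.94 (standard error 0.19, adjusted p = 0.0128) tests this difference in the LPS response. The direct comparison of IL-4+LPS with LPS, a 1.5-fold higher mean, passed more narrowly (log2 fold change 0.48, adjusted p = 0.0235). It was lost without IL-4+LPS replicate 1 (log2 fold change 0.35, adjusted p = 0.0656), LPS replicate 2 (0.0707) or LPS replicate 3 (0.0896), without a filter (0.063) and when LPS and IL-4+LPS samples alone were fitted (0.0999).

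Rxrb (chr17:34031812-34038403, plus strand, protein-coding) encodes RXRβ, a second RXR with the same partners. Its level was 17.68, 23.45 and 19.08 FPKM in control cells, 13.26, 15.08 and 14.1 with IL-4, 7.737, 7.171 and 6.968 with LPS, and 6.779, 6.069 and 6.812 with IL-4+LPS. IL-4 lowered it about as much as Rxra on the log2 scale (-0.47, adjusted p = 0.00457), but its fall after LPS was shallower, to 36.3% of control (log2 fold change -1.34, adjusted p = 8.26e-07, and -0.89 relative to all rows). After IL-4 it fell by 1.00 on the log2 scale with LPS (adjusted p = 7.84e-06). The 3 IL-4+LPS samples were below the 3 LPS samples, but the difference did not pass the test (log2 fold change -0.14, 95% interval -0.36 to 0.09, adjusted p = 0.351), nor did the interaction (0.33, 95% interval 0.02 to 0.65, adjusted p = 0.182).

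As a result the more abundant RXR changed. The ratio of Rxra to Rxrb within a sample was above 1 in 6 of 6 samples without LPS, at 1.13 to 1.34, and in 0 of 6 samples with LPS, at 0.413 to 0.941. For replicates 1 to 3 it was 0.563, 0.454 and 0.413 with LPS and 0.941, 0.774 and 0.687 with IL-4+LPS. The ratio of Pparg to Rxra was 1.72 ± 0.156 in control cells, 5.43 ± 0.555 with IL-4, 3.04 ± 0.114 with LPS and 1.68 ± 0.648 with IL-4+LPS (mean ± SD, n = 3). The wide spread of the last group came from replicate 1, at 2.42 against 1.36 and 1.25. Rxrg, the other RXR gene, stayed below 1 FPKM in every sample.

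**Figure D2:**
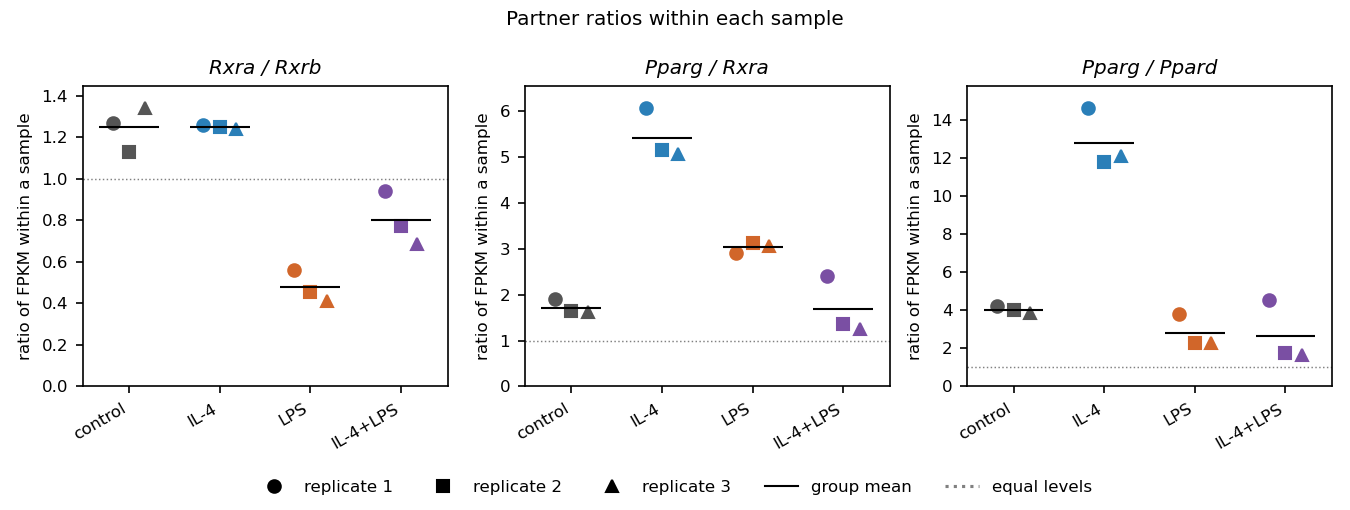
Ratio of 2 receptor levels within each sample (y axis, linear from 0) for Rxra to Rxrb, Pparg to Rxra and Pparg to Ppard in the 4 groups (x axis), with 1 symbol per sample, a line at the group mean and a dotted line at equal levels. Rxra exceeds Rxrb in the 6 samples without LPS (1.13 to 1.34) and in none of the 6 with LPS (0.413 to 0.941), and the ratio of Pparg to Rxra is highest in the 3 IL-4 samples (5.07 to 6.07).

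Rara (chr11:98937696-98974942, plus strand, protein-coding) encodes the retinoic acid receptor RARα, and its pattern followed that of Rxra. Control samples held 9.216, 10.52 and 9.917 FPKM, IL-4 samples 6.811, 7.86 and 7.578 FPKM, LPS samples 2.277, 2.02 and 1.862 FPKM, and IL-4+LPS samples 3.502, 2.685 and 2.949 FPKM. No 2 of these groups overlapped. Differences were -0.37 after IL-4 (adjusted p = 0.0119), -1.84 after LPS (adjusted p = 6.8e-08, and -1.39 relative to all rows) and -1.06 for LPS after IL-4 (adjusted p = 3.7e-06). Rara was 1.48-fold higher in IL-4+LPS than in LPS samples (log2 fold change 0.40, standard error 0.10, adjusted p = 0.00893), and its interaction was 0.77 (adjusted p = 0.00534). These calls held without any single sample. A related receptor, Rarg, also bound by retinoic acid, was higher with IL-4 (log2 fold change 0.42, adjusted p = 0.00162), as it was with IL-4+LPS against LPS (0.53, adjusted p = 0.000411).

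Vdr (chr15:97854427-97908296, minus strand, protein-coding) encodes the vitamin D receptor and was near the lower limit of detection. Control samples held 0.1602, 0.135 and 0.2006 FPKM, while IL-4 samples held 0.3629, 0.575 and 0.6559 FPKM, each above every control sample. With LPS the level was 0.1165, 0.1998 and 0.168 FPKM, and with IL-4+LPS it was 0.1819, 0.0791 and 0.08125 FPKM, so both LPS-treated groups overlapped with control. In a fit of all 23847 rows without a filter on low values, Vdr was higher after IL-4 (log2 fold change 0.39, adjusted p = 0.0052, a 3.21-fold higher mean) and lower when LPS followed IL-4 than with IL-4 alone (-0.46, adjusted p = 0.000727). Its interaction in that fit was -0.45 (adjusted p = 0.0412).

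The 9 receptors with a RefSeq promoter entry have 16 promoters, each of 250 bases before and 50 after a start site. Among them only the Vdr promoter held the STAT6 consensus, TTC and GAA spaced by 4 bases. STAT6 is the transcription factor activated by IL-4, and the match is shown because Vdr is higher with IL-4. It begins at base -220 from the RefSeq start, in an intron of the longest GENCODE model, and the consensus was present on either strand in 6.95% of 32851 RefSeq promoters of this length (GRCm38.p6, the assembly also called mm10). The stretch chr15:97908482-97908541 is printed for the minus strand, with the match in capitals.
Vdr: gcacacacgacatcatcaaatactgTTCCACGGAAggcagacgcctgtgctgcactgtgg
Pparg, the receptor with the larger IL-4 increase in FPKM, held no match in any of its 3 RefSeq promoters, which says only that these letters are not in those windows.

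Nr3c1 (chr18:39410545-39487245, minus strand, protein-coding), the glucocorticoid receptor gene, was the only well-expressed receptor that LPS raised. Control samples held 19.14, 16.23 and 17.17 FPKM, and LPS samples held 29.3, 30.68 and 31.87 FPKM. The groups did not overlap, and the mean was 1.75-fold higher (log2 fold change 0.77, standard error 0.12, adjusted p = 0.000155, and 1.22 relative to all rows). IL-4 samples held 15.48, 10.76 and 11.78 FPKM, each below every control sample. Their difference of -0.45 (adjusted p = 0.0139) was lost without IL-4 replicate 2 (0.0557), IL-4 replicate 3 (0.0546) or control replicate 1 (0.0517), and when control and IL-4 samples alone were fitted (0.0521).

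The level reached with LPS was lower after IL-4. IL-4+LPS samples held 16.44, 13.95 and 14.86 FPKM, which was 49.3% of the LPS mean with no overlap (log2 fold change -0.98, standard error 0.12, adjusted p = 0.000148). Against IL-4 alone, the difference was 0.25 (95% interval -0.02 to 0.51, adjusted p = 0.0846). Relative to all rows it was 0.65, and after median scaling it was 0.64 and passed (adjusted p = 0.00131). It also passed without IL-4 replicate 1 (0.39, adjusted p = 0.0043), the highest IL-4 sample. The interaction was -0.53 and did not pass (95% interval -0.90 to -0.15, adjusted p = 0.0807). It passed with the replicate number as a block (adjusted p = 0.0255) and with replicates 2 and 3 only (-0.54, adjusted p = 0.00657), so the call of a smaller LPS response after IL-4 depended on the fit.

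**Figure D3:**
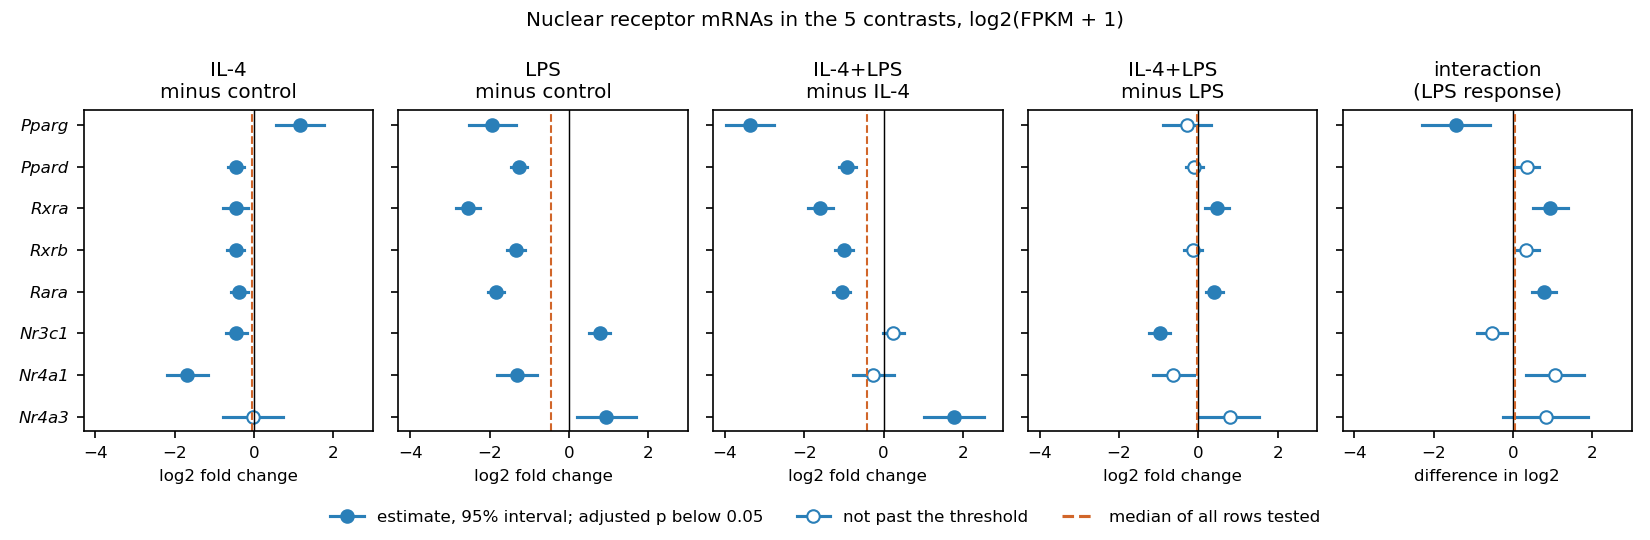
Log2 fold change of FPKM + 1 (x axis) of the 8 tested receptors (y axis) in 4 contrasts and the interaction, with bars for the 95% interval, filled points where the adjusted p was below 0.05, and a dashed line at the median of all rows tested. After LPS, Rxra (-2.54), Pparg (-1.93) and Rara (-1.84) lie farthest to the left and Nr3c1 (0.77) and Nr4a3 (0.95) to the right of 0.

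The NR4A genes behaved differently from one another. Nr4a1 (chr15:101266846-101274794, plus strand), Nr4a2 (chr2:57107226-57124003, minus strand) and Nr4a3 (chr4:48051248-48083352, plus strand), all protein-coding, encode the orphan receptors Nur77, Nurr1 and Nor1. Their RefSeq promoters each held 4 copies of the cAMP response element core, TGACG or its reverse complement CGTCA, which CREB family factors bind at many immediate early genes. At least 1 copy was present in 20.8% of the 32851 promoters, and at least 4 copies, a number set after these promoters were seen, in 0.231%. The full palindrome, the core followed by TCA, was in 1.79% of promoters and in none of those of the NR4A genes. The sequences are shown because the 3 genes share this feature but not their response. They end at the RefSeq start, except for Nr4a3, where they stop before the first GENCODE exon and so leave out the last copy, and cores are in capitals.
Nr4a1, chr15:101266596-101266845, plus strand: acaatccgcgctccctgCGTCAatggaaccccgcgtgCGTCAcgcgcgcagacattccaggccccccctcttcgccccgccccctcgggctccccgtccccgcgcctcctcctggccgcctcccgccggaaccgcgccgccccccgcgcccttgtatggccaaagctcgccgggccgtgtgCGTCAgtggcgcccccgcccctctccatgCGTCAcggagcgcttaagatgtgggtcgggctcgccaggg
Nr4a2, chr2:57124004-57124253, minus strand: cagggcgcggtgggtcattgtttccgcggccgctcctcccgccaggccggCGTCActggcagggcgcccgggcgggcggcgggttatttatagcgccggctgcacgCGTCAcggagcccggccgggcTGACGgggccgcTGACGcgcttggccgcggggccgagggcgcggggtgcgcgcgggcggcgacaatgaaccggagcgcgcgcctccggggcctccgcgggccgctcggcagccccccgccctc
Nr4a3, chr4:48045055-48045152, plus strand: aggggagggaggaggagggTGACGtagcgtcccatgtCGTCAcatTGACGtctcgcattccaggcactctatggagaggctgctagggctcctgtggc
The printed Nr4a1 stretch lies in an intron of a longer GENCODE model of that gene. A core is a match of letters only, and binding was not measured in these data.

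Nr4a1 was the NR4A gene of resting cells. Control samples held 4.206, 4.547 and 5.593 FPKM, against 0.9576, 0.6794 and 0.7565 FPKM in IL-4 samples. IL-4 lowered it 5.99-fold with no overlap (log2 fold change -1.68, standard error 0.23, adjusted p = 0.000315), the steepest fall with IL-4 among the 8 tested receptors. LPS samples held 0.6027, 2.077 and 1.559 FPKM, each below control (log2 fold change -1.31, adjusted p = 0.000424, and -0.86 relative to all rows). IL-4+LPS samples held 0.2215, 0.9244 and 0.4451 FPKM, overlapping with both IL-4 and LPS samples. Against IL-4 the difference was -0.26 (95% interval -0.77 to 0.26, adjusted p = 0.338), and its sign turned under quantile normalization (0.10).

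Replicate 1 was the lowest sample in both LPS-treated groups, so pairing by number mattered for Nr4a1. IL-4+LPS was below LPS within each replicate number. The difference of -0.63 did not pass without pairing (95% interval -1.15 to -0.12, adjusted p = 0.0633) and passed with the replicate number as a block (adjusted p = 0.0344). It also passed without IL-4+LPS replicate 2 (-0.81, adjusted p = 0.0362) or LPS replicate 1 (-0.90, adjusted p = 0.00617). The interaction was 1.05 and did not pass (95% interval 0.32 to 1.78, adjusted p = 0.0748), but it did without IL-4+LPS replicate 1 (1.20, adjusted p = 0.0491) or LPS replicate 2 (1.25, adjusted p = 0.0439), with the block (adjusted p = 0.0359) and with replicates 2 and 3 only (adjusted p = 0.0184). With the block, 2 receptors in place of 1 were lower with IL-4+LPS than with LPS.

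Nr4a2 stayed between 0.1103 and 0.3397 FPKM, and the groups overlapped in the 4 main contrasts. Control samples held 0.265, 0.1103 and 0.3397 FPKM, IL-4 samples 0.2076, 0.1946 and 0.1184, LPS samples 0.2854, 0.2373 and 0.247, and IL-4+LPS samples 0.208, 0.1396 and 0.2688. Every LPS sample was above every IL-4 sample, a difference of 0.10 that did not pass in the fit without a filter (adjusted p = 0.364). In the fit without a filter its log2 fold changes lay between -0.07 and 0.04 in the 4 main contrasts, with adjusted p-values of 0.69 or more. At this level a difference would be hard to detect.

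Nr4a3 was almost silent without LPS. It was listed at 0.1484, 0 and 0.09003 FPKM in control and at 0.04981, 0.1113 and 0 FPKM in IL-4 samples. LPS samples held 0.863, 1.328 and 1.071 FPKM and IL-4+LPS samples 0.7488, 4.57 and 3.761 FPKM, so all 6 samples with LPS were above all 6 without. On the log2(FPKM + 1) scale the difference was 0.95 for LPS against control (standard error 0.34, adjusted p = 0.0261) and 1.77 for IL-4+LPS against IL-4 (adjusted p = 0.000788). Nr4a3 entered the test only through its LPS values, so these calls are no independent support for its rise. The first call was lost without LPS replicate 2 (0.0737), LPS replicate 3 (0.057), control replicate 2 (0.0683) or control replicate 3 (0.0557), and without a filter on low values (0.0767).

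IL-4+LPS replicates 2 and 3 were above all LPS samples for Nr4a3, and replicate 1 was below them. The difference between IL-4+LPS and LPS did not pass (log2 fold change 0.79, 95% interval 0.04 to 1.54, adjusted p = 0.106), nor did the interaction (0.82, adjusted p = 0.345). Both turned on replicate 1. Without IL-4+LPS replicate 1 the difference was 1.31 (adjusted p = 4.77e-05) and the interaction 1.34 (adjusted p = 0.00102). The locus in the tables starts downstream of the first exon in RefSeq and GENCODE, so the FPKM of Nr4a3 may rest on part of the transcript.

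In the order of group means, Rxra and Rara had control above IL-4, IL-4 above IL-4+LPS and IL-4+LPS above LPS, and each neighbouring pair passed the test. Ppard and Rxrb had control above IL-4 and IL-4 above LPS, with LPS and IL-4+LPS not told apart. For Pparg the order was IL-4, control, then LPS and IL-4+LPS not told apart. For Nr3c1 LPS was highest, and control, IL-4+LPS and IL-4 followed with no neighbouring pair told apart. Nr4a1 had control highest and no other neighbouring pair told apart. Nr4a3 had IL-4+LPS and LPS, not told apart, above control and IL-4, which were not told apart either.

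Coregulators connect the receptors to chromatin and transcription. Of a list of 15, 14 were tested, and 1 was higher and 6 were lower with IL-4, where 16% and 21% of all rows were, with a list median of -0.28 against -0.05. Ppargc1b, a coactivator of PPARs and of mitochondrial genes, was the one that rose, from 0.5778, 0.6131 and 0.4895 FPKM in control to 2.86, 3.483 and 3.016 FPKM in IL-4 samples (log2 fold change 1.40, adjusted p = 3.24e-05). LPS raised it without IL-4 (1.04, adjusted p = 5.37e-05) and lowered it after IL-4 (-0.57, adjusted p = 0.00364), and the interaction was -1.61 (adjusted p = 0.00084). Ppargc1b reached 1 FPKM only in treated samples, so its presence among the tested genes follows from those values. Its calls are therefore no independent support for its rises, and it adds none to the counts of increases in this list. Ncoa3, a steroid receptor coactivator, fell with IL-4 (-0.53, adjusted p = 0.00115) and had an interaction of 0.96 (adjusted p = 0.00122), with 24.5 ± 0.188, 16.7 ± 0.416, 10.4 ± 1.24 and 14.3 ± 1.54 FPKM in the groups ordered as untreated, IL-4, LPS and IL-4+LPS (mean ± SD, n = 3). With LPS, 3 coregulators rose and 9 fell, where 16.9% and 57.7% of all rows did, and the list's median of -0.54 was close to the -0.44 of all rows. Tbl1xr1, a subunit of nuclear receptor corepressor complexes, fell from 7.58 ± 1.03 to 1.37 ± 0.204 FPKM (log2 fold change -1.85, adjusted p = 1.06e-06). Ncor1, a corepressor, fell less, from 18.02 ± 1.996 to 11.44 ± 1.326 FPKM (-0.61, adjusted p = 0.00197).

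Enzymes that make lipid ligands of PPARs moved in opposite directions. Of 8 listed, 5 were tested. Ptgs1, the constitutive cyclooxygenase, was at 2.843, 3.416 and 3.811 FPKM in control and at 31.33, 39.48 and 36.26 FPKM in IL-4 samples (log2 fold change 3.07, adjusted p = 6.01e-08). Ptgs2, the inducible cyclooxygenase, averaged 0.532 ± 0.46 FPKM in control and 330 ± 133 FPKM in LPS samples (log2 fold change 7.70, adjusted p = 4.34e-08). Hpgds, which makes prostaglandin D2, fell with IL-4 (-1.74, adjusted p = 0.00633) and with LPS (-1.68, adjusted p = 0.00279). Pla2g4a, a phospholipase that releases arachidonic acid, rose with both. Alox5, the 5-lipoxygenase gene, was lower with both, but it reached 1 FPKM only in control replicates 2 and 3, at 1.376 and 1.5 FPKM. Its presence among the tested genes follows from those values, so its calls are no independent support for a fall. Alox15, which makes fatty acid ligands after IL-4 in some macrophages, stayed at or below 0.114 FPKM here.

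PPAR target genes rose or did not pass the test with IL-4, and most fell with LPS. Of 16 listed, 14 were tested, and 7 were higher and 0 lower with IL-4 in limma, with a median of 0.28 against -0.05 for all rows, of which 16% were higher and 21% lower. At an unadjusted p below 0.05, 8 were higher and 0 lower. Fabp4, a fatty acid binding protein, was at 128.2, 125.1 and 124.4 FPKM in control and at 382.4, 556.8 and 491.9 FPKM in IL-4 samples (log2 fold change 1.90, adjusted p = 0.00086). Cd36, a scavenger receptor for oxidized lipid, rose from 1023 ± 93.6 to 1641 ± 243 FPKM (0.67, adjusted p = 0.0035). With LPS, 12 were lower and 0 higher in limma, also at an unadjusted p below 0.05, with a median of -0.92 against -0.44 for all rows, of which 57.7% were lower. Angptl4, an inhibitor of lipoprotein lipase, fell from 10.1 ± 3.79 to 0.209 ± 0.162 FPKM (-3.14, adjusted p = 2.21e-06), and Cpt1a, which brings fatty acids into mitochondria, fell by 1.70 (adjusted p = 1.22e-05).

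Between IL-4+LPS and LPS samples, where Pparg itself did not pass the test, 9 of the 14 PPAR targets were higher and 0 lower in limma, also at an unadjusted p below 0.05, with a median of 0.43 against -0.03 for all rows, of which 15% were higher and 15.8% lower. Fabp4 was at 388.4, 789.9 and 676.6 FPKM in IL-4+LPS samples and at 99.16, 207.3 and 199.1 FPKM in LPS samples, with no overlap (log2 fold change 1.88, adjusted p = 0.00102). Cd36 was also higher (0.77, adjusted p = 0.0018). In the interaction 0 of the 14 targets passed in limma, and 1 had an unadjusted p below 0.05. Messenger RNA of targets that was made before LPS could not be told apart from RNA made after it.

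**Figure D4:**
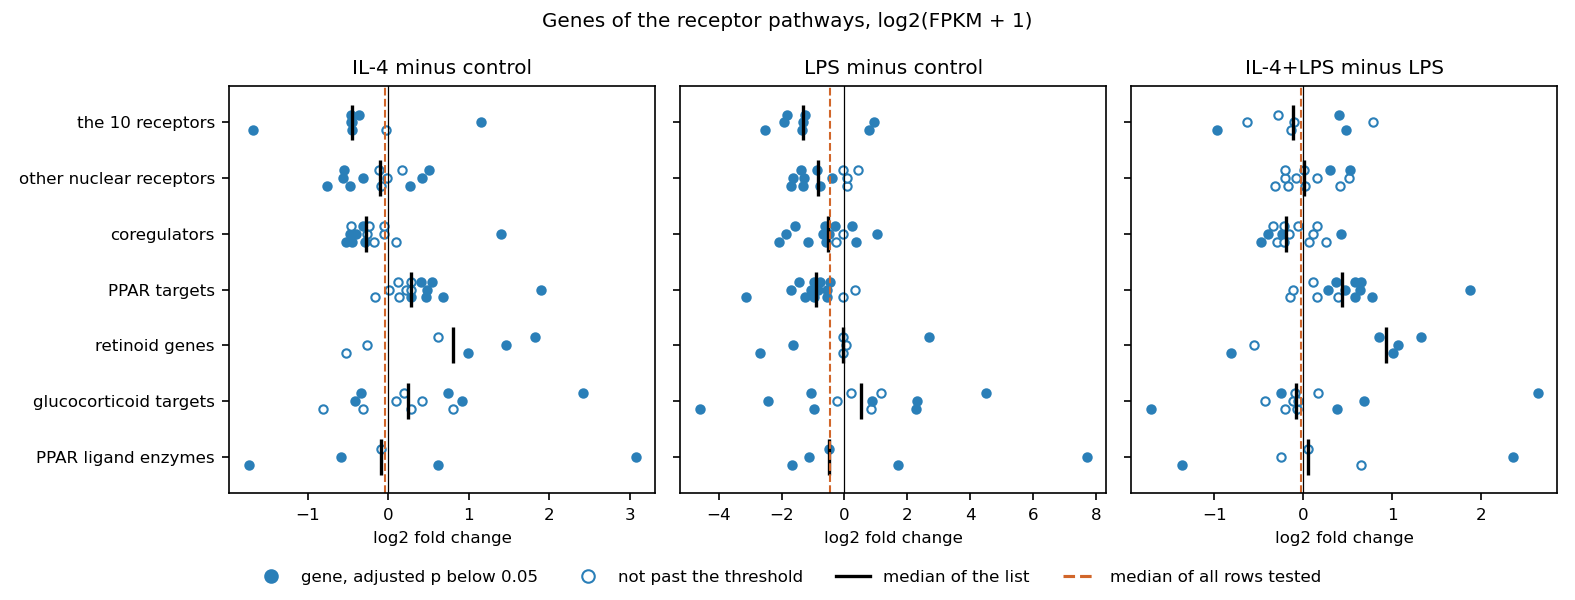
Log2 fold change of FPKM + 1 (x axis, its own range in each panel) of each tested gene in 7 lists (y axis) for IL-4 against control, LPS against control and IL-4+LPS against LPS, with filled points where the adjusted p was below 0.05, a bar at the median of the list and a dashed line at the median of all rows. PPAR targets have medians of 0.28, -0.92 and 0.43 in the 3 panels, against -0.05, -0.44 and -0.03 for all rows.

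Retinoid genes, which supply or answer to retinoic acid, were mostly low. Of 15 listed, 6 were tested, with 3 higher and 0 lower after IL-4 in limma, and 4 and 0 at an unadjusted p below 0.05, where 16% of all rows were higher and 21% lower. Of the 3, Aldh1a2 and Rbp4, a retinol carrier, reached 1 FPKM only in samples with IL-4, so their presence among the tested genes follows from those values and the count supports no direction of the list. Dhrs9, a retinol dehydrogenase, was at 7.251, 7.908 and 8.174 FPKM in control and at 30.52, 29.52 and 29.88 FPKM in IL-4 samples (log2 fold change 1.82, adjusted p = 1.95e-05). Aldh1a2, the retinaldehyde dehydrogenase that makes retinoic acid, was listed at 0 in all 3 control samples and at 0.6499, 1.476 and 0.9038 FPKM in IL-4 samples. Dhrs3, which turns retinaldehyde back to retinol, fell with LPS from 219 ± 9.24 to 34.1 ± 11.3 FPKM (-2.69, adjusted p = 5.45e-06). Of the 4 vitamin D enzymes, 2 were tested, and Cyp27a1, a sterol hydroxylase, fell with IL-4 (-1.29, adjusted p = 4.37e-05) and with LPS (-1.59, adjusted p = 1.78e-06).

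Glucocorticoid receptor targets moved in both directions. All 12 listed were tested, and with LPS 4 rose and 4 fell, where 16.9% and 57.7% of all rows did. The list's median was 0.53 against -0.44 for all rows. Tsc22d3, which encodes the glucocorticoid-induced leucine zipper, went from 45.37, 42.75 and 44.81 FPKM in control to 0.8562, 0.9432 and 0.8127 FPKM in LPS samples (log2 fold change -4.60, adjusted p = 1.64e-08), and Per1, a circadian clock gene, fell by 2.42 (adjusted p = 4.16e-09). The genes that rose included Zfp36, which destabilizes cytokine mRNA (2.29, adjusted p = 3.9e-05), and Mt2, a metallothionein (4.50, adjusted p = 7.39e-05), both of which answer to signals other than glucocorticoid as well. Klf9, a Krüppel-like factor, was at 3.803, 2.503 and 2.251 FPKM in control and at 20.21, 19.5 and 18.37 FPKM in IL-4 samples (2.42, adjusted p = 1.39e-06), where Nr3c1 was lower. Between IL-4+LPS and LPS, Dusp1, a phosphatase of MAP kinases, was lower (-1.72, adjusted p = 0.0116) together with Nr3c1, while Klf9 was higher (2.64, adjusted p = 8.54e-07). Of 5 chaperones and steroid enzymes, 4 were tested, and Fkbp4, a chaperone partner of the receptor, fell with LPS (-0.88, adjusted p = 9.21e-06) while Ptges3, the p23 cochaperone, rose (0.57, adjusted p = 1.05e-05).

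The remaining nuclear receptors were mostly low. Of 39, 12 were tested, of which 3 were higher and 5 lower with IL-4 and 0 were higher and 8 lower with LPS in limma, also at an unadjusted p below 0.05. Both counts of decreases include Esr1, an estrogen receptor gene, which reached 1 FPKM only in control replicate 1, at 1.07 FPKM. It was tested only through that sample, so it adds no support to either count. Of all rows, 16% were higher and 21% lower with IL-4, and 16.9% were higher and 57.7% lower with LPS, so the share that fell with LPS was near that of all rows. Their median after LPS was -0.83, beside -1.32 for the 8 tested receptors above and -0.44 for all rows. The liver X receptor genes, which sense oxysterols, were among the 4 that did not pass after LPS. Nr1h2 was at 47.0 ± 5.57 FPKM in control and 45.2 ± 3.88 FPKM in LPS samples, and Nr1h3 was higher in IL-4+LPS than in IL-4 samples, at 59.7 ± 1.39 and 31.3 ± 8.77 FPKM (log2 fold change 0.95, adjusted p = 0.00136).

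The gene whose pattern over the 12 samples was most like that of Rxra, by Pearson r of log2(FPKM + 1), was Rara, with r = 0.998, and the converse held for Rara. For the others it was Lemd2 for Pparg (0.99), Nfic for both Ppard (0.993) and Rxrb (0.994), Wwc2 for Nr4a1 (0.966) and Mdfic for Nr3c1 (0.98). Ifnb1, the interferon beta gene, was among the 3 genes most like Nr4a3 (0.979). The points share their libraries and the 4-group structure, and the values describe likeness only.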

How the data were processed

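Per the labels and the study's methods, poly-A RNA was sequenced as paired reads from libraries whose kit does not mark strand. The submitters' processing notes name TopHat2 2.0.7, Cufflinks 2.0.2 and mm10; the annotation is not given in the sources used here. The deposited tables hold FPKM values that the authors computed, 1 table per sample. No exon of a member shares bases with another GENCODE vM21 gene.

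Tables were joined on locus, gene identifier and start site identifier. FPKM totals were 457583 to 495025 per sample. Fragment counts were not used, so absolute depth is unknown and errors come from the replicates; low values gave a relative depth of 0.991 to 3.297 (control replicate 1 = 1). Rows with at least 1 FPKM in at least 1 sample were fitted as log2(FPKM + 1) in limma 3.58.1 (R 4.3.3, group means, all 12 samples, eBayes with trend, Benjamini-Hochberg adjustment). Vdr and Nr4a2 values come from a fit with no filter. The study describes its LPS fold changes as from 3 animals in 2 experiments, which the labels do not tie to replicate numbers; experiment was not a term in the fit, though replicate 1 stood apart. In simulated data for LPS against control (10829 rows), 86% of 200 changes of log2 size 1 were recovered and 5.5% of calls were false. These changes were set in well-expressed genes only, in random directions, with noise independent between samples. In the data far more rows changed, mostly downward, and replicate 1 was offset. The simulated rates therefore do not carry over to the real contrasts or to the low receptors.

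Same-numbered LPS and IL-4+LPS samples deviated together (r 0.119 to 0.386 for the 3 numbers, though 3 of 6 samples correlated best with their own number), so numbers were taken to pair these groups and no others.

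The receptors and gene lists were chosen with earlier results of these data known. Named list genes were taken from up to 3 per direction, list and contrast with the largest change past the threshold; Ppara, Rxrg, Alox15, Ncor1, Nr1h2, Plin1, Adipoq, Emr1, Mertk and Mcpt8 were named after their values were seen, and some genes the rule takes are not reported here. Alternatives were another pseudocount, other filters, median scaling, quantile normalization, no trend, only the compared groups, the replicate block, unadjusted p, omission of each sample and, added after the data were seen, replicates 2 and 3 only. Promoters are from RefSeq (GRCm38.p6), with entries for 9 of the 10 receptors. Plots were made in Python 3.11.15 (matplotlib 3.10.9).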

Additional observations from a re-analysis of the deposited data

Results flagged for a closer look

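The LPS response differed between cells with and without IL-4 pretreatment, by the interaction term of the limma fit, for 3 receptors and 6 genes of their pathways. For the receptors the difference on the log2 scale was 0.944 for Rxra (adjusted p = 0.0128), 0.775 for Rara (adjusted p = 0.00534) and -1.439 for Pparg (adjusted p = 0.0428). Of these, the Pparg call depended on which samples entered the fit. Among coregulators it was 0.958 for Ncoa3 (adjusted p = 0.00122) and -1.614 for Ppargc1b (adjusted p = 0.00084). The Ppargc1b response changed sign, with a rise after LPS in untreated cells and a fall in pretreated ones. Ppargc1b entered the test only through its values in treated samples, so this call is no independent support for that change. For Fkbp5, a chaperone that is itself induced by glucocorticoid, it was -0.569 (adjusted p = 0.0435), and for the cochaperone Ptges3 it was -0.473 (adjusted p = 0.00677). For both, the difference made by LPS was smaller after IL-4. For the ligand enzymes Ptgs1 and Pla2g4a it was -0.71 (adjusted p = 0.0296) and -0.559 (adjusted p = 0.0491). Ptgs1 averaged 3.357 FPKM in control and 0.9912 in LPS samples, and 35.69 in IL-4 and 9.299 in IL-4+LPS samples. The added 1 FPKM is larger than the LPS mean and understates the fall without IL-4 more than the fall after it. Most of the Ptgs1 interaction comes from that constant, so its call is not read as a difference in the LPS response. The alternatives below were read for the receptors only, so the calls of the 6 pathway genes were not checked against them. All groups had 3 samples, so no sample was tested as an outlier of its group.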

How the results depend on the processing

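The 3 samples per group and the low values of Vdr, Nr4a2 and Nr4a3 limit what can be detected. Counts of receptors past the threshold moved by more than 1.5 times as follows. Without a filter on low values, 2 were higher after IL-4 (Vdr entered), 1 after LPS (Nr4a3 was lost) and 1 in IL-4+LPS against LPS (Rxra was lost). For IL-4+LPS against IL-4, median scaling, quantile normalization, the replicate block and replicates 2 and 3 only each gave 2 higher in place of 1. With only the compared groups, 1 was higher in IL-4+LPS than in LPS. The replicate block and unadjusted p each gave 2 lower there, and replicates 2 and 3 only gave 3. For the interaction, the replicate block gave 4 positive (Ppard and Nr4a1 entered) and 2 negative (Nr3c1 entered), unadjusted p gave 5 and 2, replicates 2 and 3 only gave 4 and 2, and a pseudocount of 0.1 gave 0 negative. Between LPS and IL-4+LPS the block changed no other call of a receptor than that of Nr4a1. In the other comparisons same-numbered samples correlated with r of 0.002 to 0.181, and 3 to 5 of 6 samples correlated best with their own number. Replicate 1 stood apart in every group, so the block there also takes up this shared offset. The direction turned for Nr4a1 in IL-4+LPS against IL-4 under quantile normalization (0.102), and for Nr4a3 in IL-4 against control with replicates 2 and 3 only (0.014), without IL-4 replicate 3 (0.003) and without control replicate 1 (0.012), with a range of -0.088 to 0.012 over the omissions. Leaving out 1 sample at a time gave 1 to 1 higher and 4 to 6 lower after IL-4, 1 to 2 and 6 to 6 after LPS, 1 to 2 and 5 to 5 for IL-4+LPS against IL-4, 1 to 2 and 1 to 2 against LPS, and 2 to 4 positive and 0 to 1 negative for the interaction. The cause of these moves was not tested.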
